A study of Mus musculus with 5 samples.

Results

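Mouse autosomes are telocentric: the centromere lies at one end, and assembled sequence in the mm9 build begins about 3 Mb from that end. The region described here is the first 3 Mb of assembled sequence on each of the 19 autosomes, from position 3000000 to 6000000, taken as a set of CpG dinucleotides. A CpG belonged to the set when its second count, explained below, was at least 10 in all 5 libraries, and the first 40 kb of chromosome 9 were left out as satellite sequence, where 16% of CpGs were deeper than 5 times the median. The set held 44274 of 1780536 measured autosomal CpGs (2.49%). Position, not methylation, chose the members.

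Reduced representation bisulfite sequencing, in which MspI enriches CpG-rich fragments and bisulfite separates methylated from unmethylated cytosines, was applied to mouse cells called HSCs (hematopoietic stem cells) by their source name and sorted from peripheral blood by the growth protocol. The WT group had 1 wildtype library. The K36M group had 2 libraries from mice with a dominant negative H3.3 at lysine 36, and the K9M group 2 libraries from mice with a dominant negative H3.3 at lysine 9. Mice of both mutant groups were induced with 2 mg/ml doxycycline in their drinking water. Whether WT received the drug is not stated in the sources used here. A drug effect therefore cannot be told apart from the mutation against WT, whereas K36M and K9M share the drug. Strain, age, transgene promoter and whether replicates came from separate animals are not given in the sources used here. Each library was made from a pellet of 100000 cells with 12 cycles of amplification. With no expression data, the cell type was not checked against markers, and in a bulk pellet a change within cells and a change in the mix of cells cannot be told apart.

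Heterochromatin beside the centromere is the best known site of H3K9 trimethylation, which is written by SUV39H1 and SUV39H2, is bound by HP1 proteins and recruits the H4K20 methyltransferases KMT5B and KMT5C. DNA methylation is dense on the satellite repeats at its core and is placed by DNMT3A and DNMT3B and copied by DNMT1. H3K36 methylation marks transcribed genes and intergenic domains and is read by the PWWP domains of DNMT3A and DNMT3B, while lysine-to-methionine histones lower methylation of the corresponding lysine on other histones. The assembled 3 Mb next to that heterochromatin hold ordinary genes as well as repeats. The genes for SUV39H2, DNMT3A, KMT5B and KMT5C themselves lie in the region studied.

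All levels are relative methylation levels. For each CpG the methylated count was divided by a second count of reads, and the ratio was expressed in percent of the library's own plateau, the ratio at its most methylated tiles. What the 2 counts are was inferred from the values, since the sources used here do not state it. A relative level can pass 100%, and a change that scales a whole library alike cannot be seen on it. The second count at the members had a median of 44 in WT, 35 and 42 in K36M, with 35 and 45 in K9M, close to the 43, 35, 42, 34 and 44 of the rest of the autosomes. Autosomal total counts ran from 108651379 to 168836289 per library. K9M replicate 2 appeared, from its values, to be deposited on another scale than the other 4 libraries, and the comparisons with K9M are also given without it.

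As landmarks of the region, 4 promoters are shown first, chosen to span the states seen there: the unmethylated promoter of Suv39h2, the H3K9 methyltransferase; the promoter of the noncoding RNA Rab10os, the only placed promoter among the called tiles described below; the partly methylated promoter of the uncharacterised LOC115490388; and the methylated promoter of Ccdc152, a coiled-coil protein gene. The letters are the 250 bases before the transcript start from RefSeq (GRCm38.p6), written 5′ to 3′ along the gene's strand, and capitals mark the CpGs measured in all 5 libraries. The positions are in mm9 and come from matching the spacing of CpGs in each RefSeq sequence to the CpGs listed in the files. They are chr2:3392259-3392508 (minus strand), chr12:3235541-3235790 (plus), chr6:3132866-3133115 (plus) and chr15:3253527-3253776 (minus).
Suv39h2: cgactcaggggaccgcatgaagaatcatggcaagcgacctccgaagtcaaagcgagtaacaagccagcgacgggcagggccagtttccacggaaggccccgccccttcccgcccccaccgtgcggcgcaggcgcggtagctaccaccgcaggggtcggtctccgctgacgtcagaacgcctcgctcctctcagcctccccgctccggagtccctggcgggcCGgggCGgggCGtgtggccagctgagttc
Rab10os: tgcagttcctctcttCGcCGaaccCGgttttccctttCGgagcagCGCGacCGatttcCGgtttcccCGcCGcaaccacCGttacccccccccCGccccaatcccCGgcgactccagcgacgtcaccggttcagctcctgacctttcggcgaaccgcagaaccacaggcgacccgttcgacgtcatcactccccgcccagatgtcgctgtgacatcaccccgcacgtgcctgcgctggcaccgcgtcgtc
LOC115490388: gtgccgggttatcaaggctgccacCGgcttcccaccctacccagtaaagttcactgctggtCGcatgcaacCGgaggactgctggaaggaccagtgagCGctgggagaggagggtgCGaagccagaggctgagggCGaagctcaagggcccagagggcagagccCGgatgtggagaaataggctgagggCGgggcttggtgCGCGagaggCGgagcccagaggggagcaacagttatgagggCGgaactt
Ccdc152: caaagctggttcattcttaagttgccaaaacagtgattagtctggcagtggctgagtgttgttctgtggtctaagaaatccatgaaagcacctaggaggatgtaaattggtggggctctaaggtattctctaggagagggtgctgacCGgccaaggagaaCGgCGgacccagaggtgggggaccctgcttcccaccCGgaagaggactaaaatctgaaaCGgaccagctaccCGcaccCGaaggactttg
Measured CpGs numbered 3 of 27 in the Suv39h2 sequence, 13 of 32 for Rab10os, 12 of 13 for LOC115490388 and 7 of 7 for Ccdc152. CpGs without capitals had too few counts in at least 1 library or were not listed.

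As a whole, the region was methylated to nearly the same mean level as the rest of the autosomes. The mean relative level over member CpGs was 46.2% in WT, 45.2% and 45.7% in K36M (45.4% ± 0.35, SD, n = 2), and 46.3% and 47.6% in K9M (46.9% ± 0.943, SD, n = 2). The rest of the autosomes stood at 46.6% in WT, 45.5% and 45.8% in K36M, with 46.4% and 47.8% in K9M. Each library was thus slightly lower in the region, with a difference of -0.388 points in WT. The K36M differences were -0.312 and -0.180 points and the K9M differences -0.176 and -0.233. The mean difference was -0.258 points, lower in 5 of 5 libraries, with p = 0.0625 in an exact two-sided sign-flip permutation test over libraries, the smallest p that 5 libraries allow. The difference was -0.0365 points when a second count of at least 20 was required (p = 0.375, exact) and -0.0561 points with the satellite kept (p = 0.438, exact), and -1.58 points when counts were pooled instead of averaging CpGs.

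The neighbouring sequence differed more. The next 3 Mb of each chromosome, from 6 to 9 Mb, had mean levels of 51.7% to 53.5% over the 5 libraries, and the first 3 Mb differed from them by -5.94 to -6.57 points within a library. The last measured 3 Mb of each chromosome, at the telomeric end, stood at 38.7% to 41.0%, and the first 3 Mb were 6.35 to 6.75 points above them. Both gaps had the same sign in 5 of 5 libraries and were larger than the spread between libraries.

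The mean hid 2 states. In WT, 49.3% of member CpGs lay under 20% and 42.0% over 80%, which left 8.68% in between. The K36M libraries had 13.3% and 11.4% of member CpGs between 20% and 80%, and the K9M libraries 10.8% and 6.61%. The same shares over the rest of the autosomes were 9.55% in WT, 14.2% and 12.6% in K36M, against 12.0% and 7.35% in K9M, so the order of the libraries was the same inside and outside the region. K36M replicate 1 held the most intermediate CpGs and K9M replicate 2 the fewest in both.

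Levels were lower where CpGs were dense. Tiles of 1 kb with 3 to 9 measured CpGs, 70.1% of the 3699 tiles in the region, averaged 82.3% in WT, 79.9% and 80.5% in the K36M pair and 82.3% and 85.3% in the K9M pair. Tiles with 10 to 19 CpGs averaged 63.2% in WT and those with 20 to 39 CpGs 27.7%. Tiles with 40 or more CpGs, the density of CpG islands, averaged 4.01% in WT, 3.99% and 4.11% in K36M, with 4.13% and 4.17% in K9M. The region's tiles differed from those of the rest by -0.613 points on the mean of the 5 libraries, but given the rest's mix of CpG numbers they were 0.643 points higher, in 5 of 5 libraries, with 0.388 points in WT as the smallest difference. In the densest class the region stood at 4.01% in WT against 5.88% in the rest, and in the sparsest class at 82.3% against 81.5%.

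**Figure D1:**
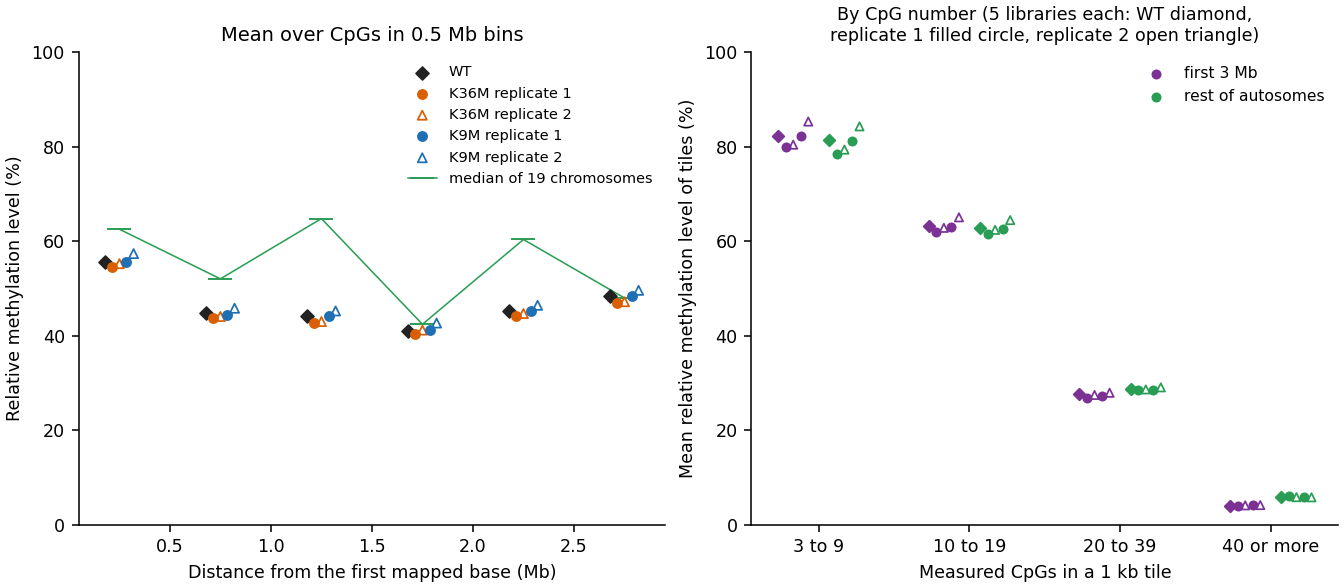
Left, mean relative methylation level (%) of member CpGs in 0.5 Mb bins against the distance (Mb) from the first mapped base, 1 point per library, with the median of the 19 chromosomes as a line. Right, mean relative level (%) of 1 kb tiles by the number of measured CpGs, 5 libraries each for the first 3 Mb and the rest of the autosomes. The first bin is the highest on the left at 54.5% to 57.4%. Levels on the right run from 78.5% to 85.3% in the sparsest class and drop to about 4% and 6% in the densest.

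Averaged over CpGs, methylation was highest in the 0.5 Mb nearest the centromere. That bin had a mean of 55.6% in WT, 54.5% and 55.3% in K36M, against 55.7% and 57.4% in K9M. The next bins had 5-library means of 44.6%, 43.9%, 41.3%, 45.2% and 48.1% in order of distance, and each of them was lower than the first in all 5 libraries. The median over the 19 chromosomes was not highest there, at 62.6% against 64.8% in the bin from 1 to 1.5 Mb. Within the first 0.5 Mb single chromosomes ran from 17.5% to 94.9%, and 11 of 19 were over 60%. In the following bins 4, 11, 6, 10 and 8 of 19 were over 60%, with no steady change with distance. The satellite-like CpGs at the very start of chromosome 9, which are not members, were methylated to 85.4% in WT, 81.6% and 84.6% in the K36M pair and 85.1% and 88.9% in the K9M pair, over 225 CpGs.

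Single chromosomes differed far more than libraries did. The 5-library mean of a chromosome's first 3 Mb ran from 30.7% on chromosome 19 to 82.1% on chromosome 3, with an SD over chromosomes of 14.8 points, whereas the median SD over the 5 libraries within a chromosome was 0.854 points. The levels of all 812 windows of 3 Mb had an SD of 16.2 points, so the spread among the 19 was like that among windows anywhere. Chromosome 3 was the highest, at 81.4% in WT, 80.6% and 82.8% in K36M, with 83.1% and 82.9% in K9M. Chromosome 9 followed at 80.9% in WT, 80.8% and 80.1% in K36M, against 80.7% and 82.0% in K9M, and chromosome 4 was next at 65.1% in WT, 65.2% and 65.3% in the K36M pair and 64.2% and 65.9% in the K9M pair. The highest pair overlapped over the libraries and both stood clear of chromosome 4. At the other end, chromosome 19 had 31.0% in WT, 29.1% and 29.7% in K36M, with 31.0% and 32.5% in K9M. Chromosome 11 had 34.7% in WT, 32.9% and 32.8% in K36M, against 34.4% and 35.7% in K9M. Chromosome 5 had 36.7% in WT, 36.0% and 36.8% in the K36M pair and 37.2% and 37.6% in the K9M pair. Chromosomes 12 and 16, at 39.5% and 39.6%, changed order from library to library, as did chromosomes 10 and 15 at 59.9% and 60.04%, while chromosome 2, at 38.4%, lay under 12 and 16 in all 5 libraries.

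The chromosomes with the most measured CpGs were the least methylated. Chromosome 19 contributed 7400 CpGs and chromosome 3 only 1048, and chromosomes 11 and 19 together held 28.0% of the members. Across the 19 chromosomes the level and the number of measured CpGs had a Spearman rank correlation of -0.84 and a Pearson r of -0.66, as a description of points that share their libraries. Over all 812 windows the rank correlation was -0.81. Averaged with equal weight per chromosome, the region stood at 52.4% against 46.7% for the rest, the opposite order to the mean over CpGs. The first 3 Mb were above the rest of their own chromosome on 12 chromosomes, by up to 37.1 points on chromosome 9, and below it on 7, with a difference of -11.1 points on chromosome 16.

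**Figure D2:**
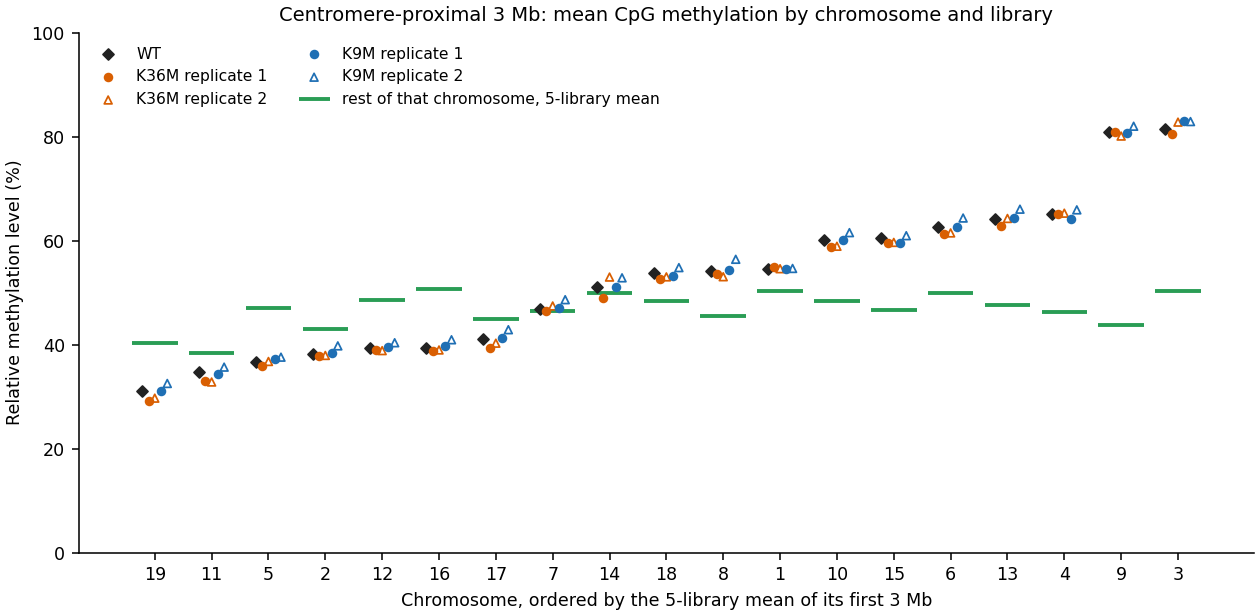
Mean relative methylation level (%) of the first 3 Mb of each autosome in all 5 libraries, with chromosomes ordered by the 5-library mean and a bar for the rest of the same chromosome. Levels rise from about 31% on chromosome 19 to about 82% on chromosome 3, and the 5 libraries of a chromosome lie close together.

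K36M against WT asks how the lysine 36 mutant, on doxycycline, differed in the region from WT, whose doxycycline status is not stated. Over all members the K36M mean differed from WT by -0.815 points, and over the rest of the autosomes by -0.957 points. An exact two-sided permutation test of 2 libraries against 1 gave p = 0.333, the smallest it allows. The difference was -0.256 points when the plateau was taken from the top 40% of tiles. Both K36M libraries were under WT on 12 of 19 chromosomes (63.2%) and above it on 2, and over all 812 windows of 3 Mb both were under WT in 66.4% and above it in 13.8%. The 2 lowest differences were -1.83 points on chromosome 11 (SE 1.02) and -1.62 on chromosome 19 (SE 0.935), and the highest was 0.245 on chromosome 3. In limma across all windows with Benjamini-Hochberg adjustment 0% of all 812 windows and none of the 19 passed an adjusted p of 0.05 (smallest 0.927). An unadjusted p under 0.05 was found in 0 of the 19, beside 16 windows lower and 2 higher among the 812. With either K9M library left out, which enter only through the shared spread, chromosomes 11 and 19 passed (adjusted p 0.00933 and 0.0135, and 0.00903 and 0.0132), which is 10.5% of the 19, beside 11.1% of all windows in each of those fits.

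K9M against WT asks the same of the lysine 9 mutant, the residue whose methylation marks heterochromatin beside centromeres. Over the members the K9M mean was 0.697 points above WT, which is less than the SD of 0.943 between the K9M libraries (p = 0.667, exact two-sided permutation test), and leaving out K9M replicate 2 gave 0.0301 points, leaving out replicate 1 gave 1.36. The rest of the autosomes differed by 0.514 points. Both K9M libraries were above WT on 14 of 19 chromosomes (73.7%), against 34.6% of all windows, and below it on 0, against 4.56%. The 19 windows share the same 5 libraries, so these counts are no test. K9M replicate 1 alone was above WT on 14 of 19 chromosomes as well, and in 35.5% of all windows. The differences ran from -0.278 points on chromosome 15 to 1.55 on chromosome 3, with SEs of 0.935 to 1.34. In limma 0% of all windows and 0 of the 19 were called (smallest adjusted p 0.999). An unadjusted p under 0.05 was found in 0 of the 19 and in 1 of the 812.

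K36M against K9M compares the 2 mutants on the same drug. The K36M mean over the members differed by -1.51 points, and the libraries did not overlap, with p = 0.333 in an exact two-sided permutation test, the smallest that 2 libraries against 2 allow. The rest of the autosomes gave -1.47 points. The gap between region and rest differed by -0.0415 points between the mutants (p = 0.667, exact), a difference that was 0.0247 without K36M replicate 1. Over the members leaving out K9M replicate 2 gave -0.845 points, and leaving out replicate 1 gave -2.18. Both K36M libraries lay under both K9M libraries on 13 of 19 chromosomes (68.4%), against 57.4% of all windows, and above them on 0, against 4.43%. Both lay under K9M replicate 1 on 13 of 19 too, and in 58.1% of all windows. K9M replicate 2 was the highest of the 5 libraries on 16 of 19 chromosomes and in 83.5% of all windows.

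In limma 0% of windows and 0 of the 19 were called for K36M against K9M in either direction, while 6 of the 19 (31.6%) had an unadjusted p under 0.05 with K36M lower and 0 with K36M higher, beside 22.7% and 0.616% of all windows. Chromosome 19 came closest, at -2.38 points (SE 0.763, adjusted p 0.0666), followed by chromosome 11 at -2.15 (SE 0.829, adjusted p 0.108). Chromosome 19 was also called with second counts of at least 5 (adjusted p 0.0344) or at least 20 (0.0314), and with the plateau of the top 40% of tiles (0.000222). In those fits 5.26%, 5.26% and 15.8% of the 19 were called lower, beside 9.48%, 4.06% and 16.7% of all windows. Leaving out K9M replicate 1 gave 13 called windows of the 19 (68.4%, beside 57.9% of all windows), and leaving out replicate 2 gave 2 (10.5%, beside 9.85%).

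**Figure D3:**
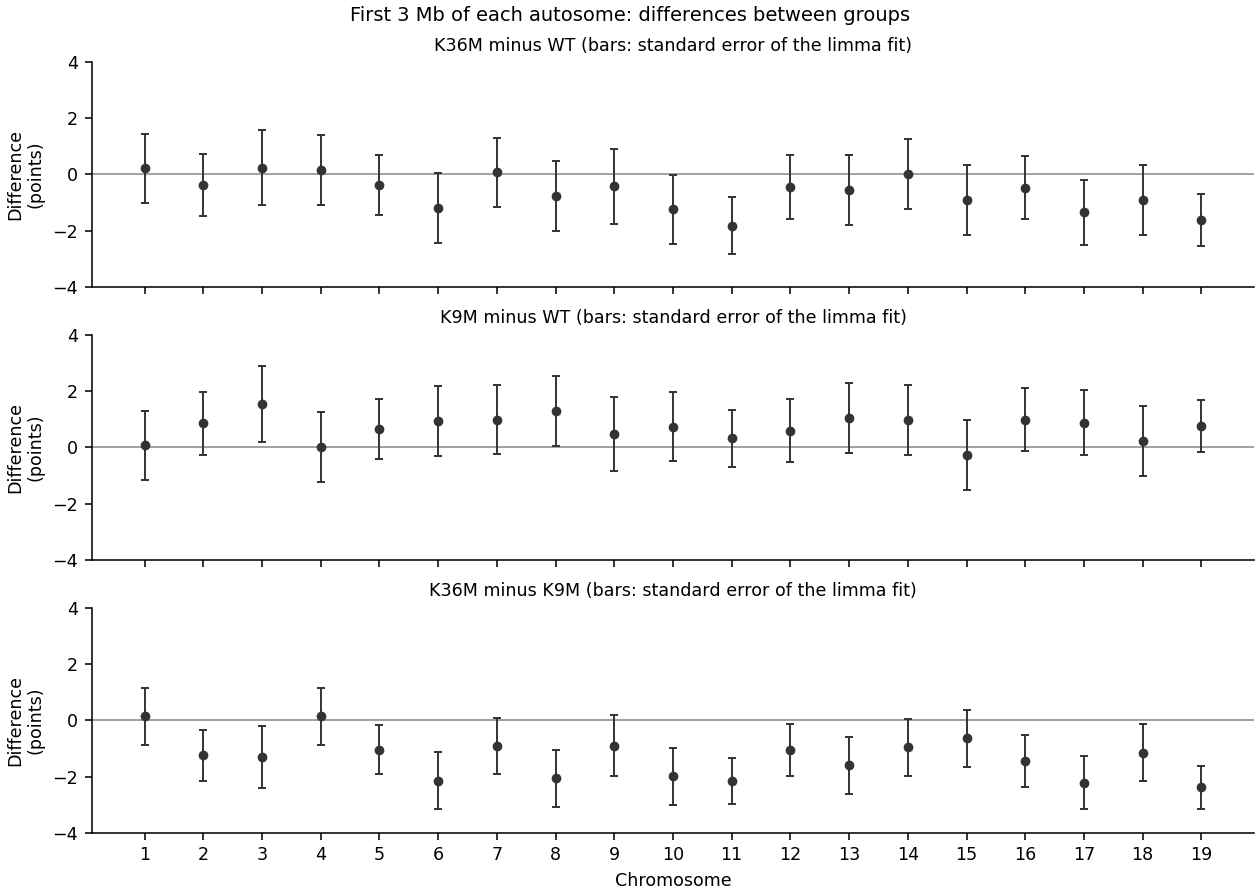
Differences in mean relative methylation level (points) for the first 3 Mb of each autosome in the 3 comparisons, with standard errors from limma as bars. Most K36M-minus-K9M points lie under 0, down to -2.38 on chromosome 19, and the bars of most chromosomes in the other panels cross 0.

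At the scale of 1 kb, single tiles moved further. Each tile with at least 3 CpGs was tested with a quasi-binomial logistic model, and calls needed a Benjamini-Hochberg adjusted p under 0.05 and group means at least 10 points apart. For K36M against WT, 21 of 3699 tiles in the region were lower (0.568%), beside 0.645% of all 152678 tiles, and 2 were higher (0.0541%), beside 0.0236%. For K9M against WT, 2 were lower (0.0541%), beside 0.0452% of all tiles, and 7 were higher (0.189%), beside 0.0838%. For K36M against K9M, 55 were lower (1.49%), beside 1.47%, and 0 were higher, beside 0.0943%; 58 tiles had an unadjusted p under 0.05 in that direction (1.57%), beside 2.02% of all tiles. These shares were near those of the genome in the larger lists, and the others hold few tiles. No tile was called in any comparison when the deposited levels were used without putting the libraries on 1 scale. With limma on relative levels in place of the logistic model, 3 tiles of the region were lower in K36M than WT (0.0811%, beside 0.168% of all tiles), 2 were higher in K9M than WT (0.0541%, beside 0.0262%), and 25 were lower in K36M than K9M (0.676%, beside 0.707%). Of the tiles named below for a call against WT, 0 of 10 for K36M (adjusted p 0.0860 to 0.703) and 2 of 9 for K9M passed that limma test, and of the 8 named for K36M against K9M 6 passed it.

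Of the 21 tiles lower in K36M than WT, 15 lay on chromosomes 11 and 19, which held 24.3% of the tiles, and the rest on chromosomes 7, 8, 12 and 17. Of the 353 tiles of the region with a K9M mean between 20% and 80%, chromosome 11 held 51 and chromosome 19 held 68. The share of such calls on these chromosomes over all autosomes was not determined. Averaged over the 21, as a description of tiles chosen by this contrast, levels were 49.9% in WT, 19.9% and 19.04% in K36M, with 45.3% and 47.6% in K9M. The K36M-against-WT list and the K36M-against-K9M list share the K36M libraries; 18 tiles were on both, which is 85.7% of the first and 32.7% of the second. None of the 21 tiles held a placed promoter, beside 297 of all 3699 tiles of the region. This count is no test. Of 299 placed promoters with enough measured CpGs, 276 were under 5% in all libraries, where a loss of 10 points is not possible. Of the 21, 4 lay within 10 kb of a placed transcript start, those of the adaptor subunit gene Ap5b1, the splicing factor gene Sf3b2, Dnmt3a and LOC102631992. The share of all tiles within that distance was not determined.

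**Figure D4:**
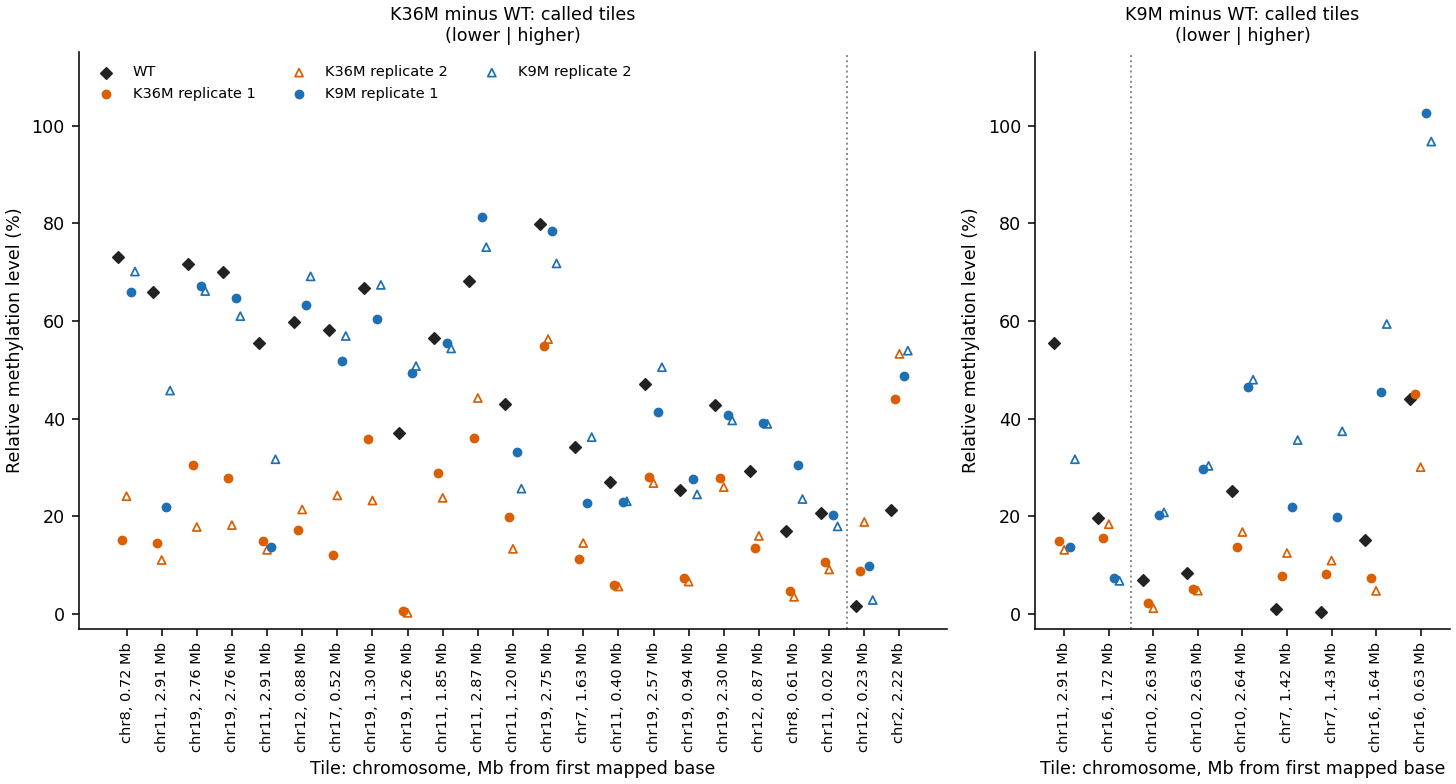
Relative methylation level (%) in each of the 5 libraries for every tile called in K36M against WT (left panel) or K9M against WT (right panel), with tiles named by chromosome and distance (Mb) from the first mapped base and a dotted line between tiles called lower and higher. In the left panel the K36M points lie well under WT in all 21 lower tiles; in the right panel the K9M points lie over WT in the 7 higher tiles.

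The largest loss, at chr8:3717001-3718000, was from 73.1% in WT to 15.1% and 24.1% in K36M, over 3 CpGs. The WT interval was 57.2% to 93.4% (95% Clopper-Pearson, counting error only). It was taken on the methylated share of the 2 counts together and rescaled to the relative level. The K9M libraries had 66.0% and 70.1% there, and the adjusted p was 0.00215. On chromosome 19, the neighbouring tiles from 5756001 and 5757001 had 70.0% and 71.6% in WT. K36M replicate 1 stood at 27.8% and 30.5% in them and replicate 2 at 18.2% and 17.8% (adjusted p 0.00015 and 0.000363). K9M replicate 1 had 64.6% and 67.1% and replicate 2 had 61.0% and 66.1%, beside WT and apart from K36M. The nearest placed start, 29684 bp away, was that of Ehbp1l1.

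A second pair, on chromosome 11 from 5906001 and 5907001, did not separate the mutants in the same way. WT had 66.0% and 55.4%, K36M replicate 1 had 14.6% and 14.9%, and K36M replicate 2 had 11.1% and 13.2% (adjusted p 0.000403 and 0.000765). K9M replicate 1 was low too, at 21.9% and 13.7%, whereas K9M replicate 2 had 45.8% and 31.7%. The second tile was also called for K9M against WT, by -32.7 points (adjusted p 0.0235, and 0.0590 with the plateau of the top 40% of tiles). WT thus stood above all 4 mutant libraries. The nearest placed start, 50240 bp away, was that of Ykt6, a SNARE protein of membrane fusion. With 1 WT library, a feature of that one sample cannot be told apart from a difference between groups here.

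Within the Dnmt3a locus, which encodes the de novo DNA methyltransferase, 2 tiles were lower in K36M. The tile chr12:3883001-3884000 had 59.9% in WT, 17.3% and 21.4% in K36M, against 63.3% and 69.1% in K9M over 5 CpGs (adjusted p 0.00593 against WT and 0.00031 against K9M). The tile from 3871001 had 29.2% in WT, 13.6% and 16.01% in K36M (-14.4 points). Both lie between placed starts of Dnmt3a transcripts on the plus strand, at 3807160 and 3891744; whether they are exonic or intronic was not determined. The promoters themselves were unmethylated: the tile over the start at 3807160 had 0.36% in WT, 0.465% and 0.393% in the K36M pair and 0.344% and 0.275% in the K9M pair over 129 CpGs, the tile before it, over a further upstream start, had 0.461% in WT, and the tile over the start at 3891744 had 0.58% in WT and less in the 4 others.

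Of the remaining tiles with the largest losses against WT, chr17:3516001-3517000 had 58.2% in WT, 12.2% and 24.3% in K36M, with 51.8% and 56.9% in K9M, 40755 bp from the start of Tfb1m, a mitochondrial rRNA methyltransferase gene. The tile chr19:4298001-4299000 had 66.8% in WT, 35.8% and 23.3% in K36M, against 60.3% and 67.4% in K9M, 14864 bp from the start of Ankrd13d. The first was not called without K36M replicate 1 and the second not without K36M replicate 2.

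The tiles with the largest gaps between the mutants included places where K9M, not K36M, stood away from WT. At chr16:3632001-3633000 WT had 43.9%, K36M 45.1% and 30.1%, and K9M 103% and 96.7%, and the tile was called for K9M against WT (55.7 points, adjusted p 0.00682) and for K36M against K9M (-62.1 points, adjusted p 9.87e-05). At chr16:4640001-4641000, 43070 bp from the start of the co-chaperone gene Dnaja3, WT had 15.2%, K36M 7.33% and 4.75%, and K9M 45.5% and 59.4% (adjusted p 0.00112 for K9M against WT). At chr19:5980001-5981000, 15795 bp from the start of Pola2, the accessory subunit of DNA polymerase alpha, WT at 44.3% lay between K36M at 24.9% and 26.5% and K9M at 85.3% and 70.6%. The tile from 4123001 on chromosome 11, 4773 bp from the start of Castor1, an arginine sensor gene, had the same order, with 70.5% in WT, 41.5% and 46.0% in the K36M pair and 92.0% and 88.2% in the K9M pair.

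The lowest K36M levels among the tiles with the largest gaps were at chr19:4263001-4264000. WT had 37.0% there, K36M 0.539% and 0.268%, and K9M 49.4% and 50.8% over 7 CpGs. The difference between the mutants was -49.7 points (adjusted p 4.81e-07). At chr17:5058001-5059000 the mutants differed by -45.7 points while WT at 37.0% lay among the K36M values of 31.8% and 39.7%, against 85.7% and 77.2% in K9M (adjusted p 0.0227), a call lost without K36M replicate 1.

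Gains in K9M over WT lay on 3 chromosomes. On chromosome 10, the tiles from 5633001, 5634001 and 5636001 had 6.95%, 8.37% and 25.1% in WT, 20.2%, 29.6% and 46.5% in K9M replicate 1, and 20.8%, 30.3% and 48.0% in replicate 2. K36M replicate 1 had 2.18%, 5.18% and 13.8% and replicate 2 had 1.21%, 4.80% and 16.8%; these values were all under WT, but none of the 3 tiles was called for K36M against WT. On chromosome 7, the tiles from 4422001 and 4430001 were near 0 in WT, at 0.964% and 0.495%. K9M reached 21.9% and 19.95% in replicate 1 and 35.6% and 37.4% in replicate 2, while K36M had 7.87% and 8.26% in replicate 1 and 12.5% and 10.96% in replicate 2. The 4 mutant libraries were all above WT there, with a call only for K9M. The remaining 2 of the 7 are those on chromosome 16 given above. One dense tile on chromosome 16, from 4718001, went the other way, with 19.6% in WT, 15.7% and 18.4% in K36M, against 7.46% and 6.81% in K9M (adjusted p 0.00279). With either K36M library or either K9M library left out, more tiles were called higher in K9M than WT, in the region and over all tiles alike. The tiles named here stayed called. The call of the tile from 5636001 was lost with second counts of at least 5 (adjusted p 0.0576) and with the plateau of the top 40% of tiles (0.0878).

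**Figure D5:**
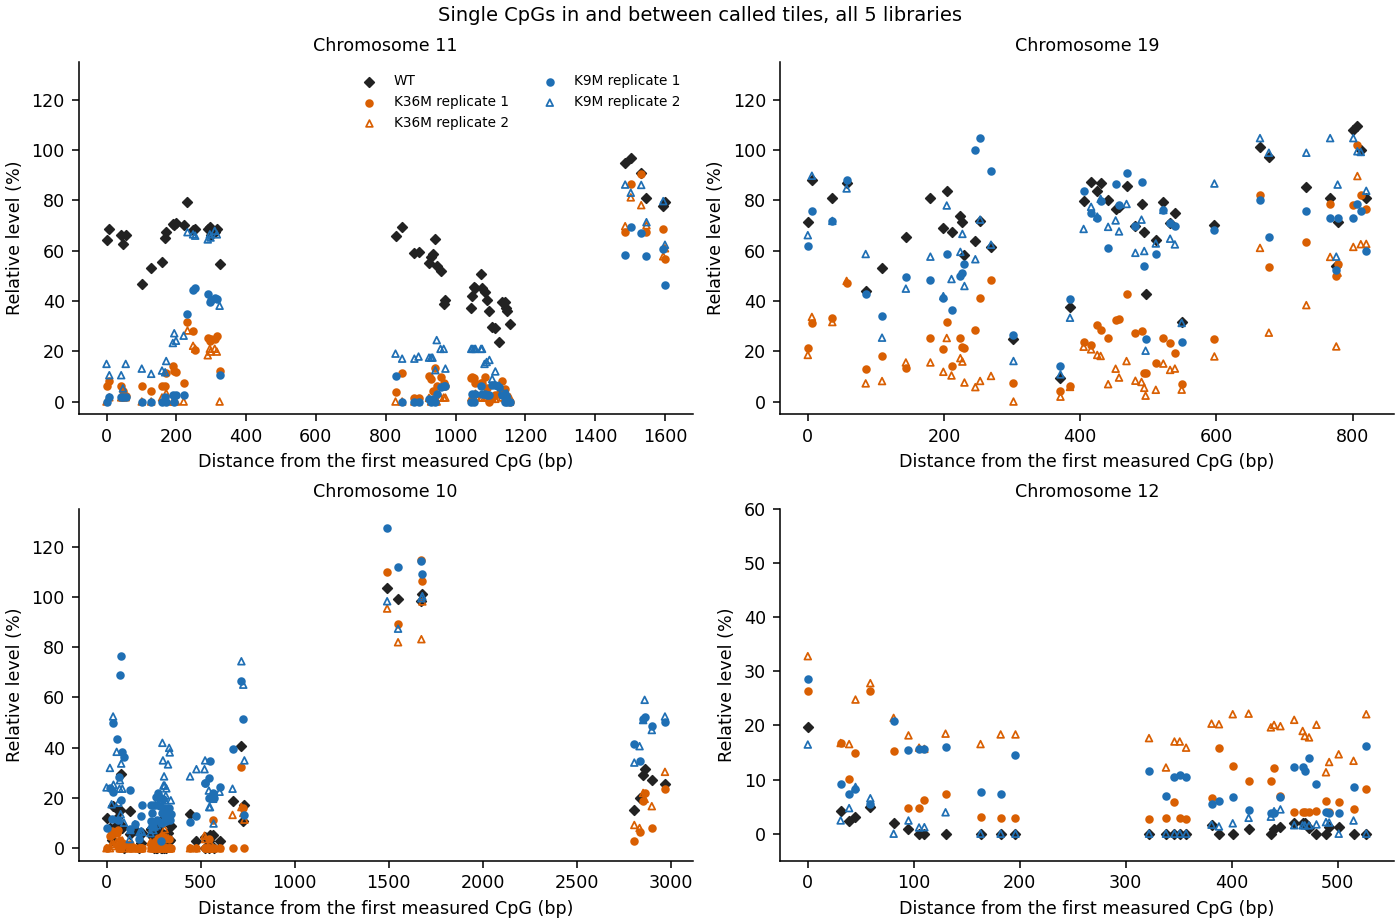
Relative methylation level (%) of every measured CpG in 4 stretches that hold called tiles, in all 5 libraries, against distance (bp) from the first CpG. WT stands above the mutants at most CpGs of the chromosome 11 stretch, K36M stands low on chromosome 19, K9M stands high at both ends of the chromosome 10 stretch, whose middle was not called, and the K36M libraries differ from each other on chromosome 12.

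Gains in K36M over WT were rare, and their calls did not hold in every fit. The tile chr2:5219001-5220000 had 21.3% in WT and 44.0% to 53.9% in the 4 mutant libraries (27.4 points for K36M against WT, adjusted p 0.0394). WT stood apart from all 4 there, and with 1 WT library a feature of that sample cannot be told apart from a group difference. The tile chr12:3235001-3236000 covers the Rab10os promoter shown above; it had 1.76% in WT (interval 1.31% to 2.32%), 8.77% and 18.9% in K36M, against 9.80% and 2.89% in K9M over 35 CpGs (adjusted p 0.0284). Its K36M libraries differed by more than K36M replicate 1 differed from WT. Both calls were lost without K36M replicate 2 (adjusted p 0.158 and 0.0512) and with the plateau of the top 40% of tiles (0.0589 and 0.0668). More tiles were called higher in K36M than WT without K36M replicate 1 and fewer without K36M replicate 2, in the region and over all tiles alike.

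K36M and WT lay farthest apart in tiles of intermediate methylation. Tiles were sorted by their K9M mean, which leaves K36M and WT outside the choice. The 353 tiles of the region between 20% and 80% averaged 57.6% in WT and 51.5% and 51.1% in K36M, a difference of -6.29 points, and the 17384 such tiles of the rest gave -5.52 points. Both K36M libraries were under WT in 54.4% of the 353 and above it in 16.7%, beside 54.2% and 18.7% in the rest. The 2553 tiles over 80% differed by -1.45 points (-1.98 in the rest), and the 793 tiles under 20% by -0.100 points (-0.176 in the rest). By chromosome, the intermediate tiles of both K36M libraries averaged under WT on 14 of 19 and above it on 0, beside 19 of 19 and 0 for the rest of the same chromosomes, with differences from -12.6 points on chromosome 10, over 10 tiles, to 1.99 on chromosome 14, over 8 tiles. Chromosomes 11 and 19, with 51 and 68 such tiles, had -10.5 and -7.98 points. Sorted by K9M replicate 1 alone, 522 tiles of the region were intermediate and differed by -4.96 points, beside -4.93 in the rest.

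The promoters that could be placed in the region were almost all unmethylated in every library. Placement needed at least 9 matched CpGs, so CpG-poor promoters were not assessed, and low levels go with CpG density as shown above. Promoters outside the region were not placed, so no share for the rest is given. RefSeq promoters could be placed for 322 transcript starts of 275 genes, and 299 of them had at least 3 measured CpGs. In 291 of the 299 the mean level was under 20% in all 5 libraries, and in 276 it was under 5%. Suv39h2 was among them: its tile of 42 CpGs had 0.256% in WT, 0.453% and 0.474% in K36M, against 0.380% and 0.222% in K9M. The promoters of Kmt5c, at 0.37% in WT, and Cenpo, a subunit of the inner kinetochore, at 0.754%, were as low, as were those of Kmt5b, at 1.12% and 0.195% for its 2 starts, and Xbp1, a transcription factor of the unfolded protein response, at 1.29%. Their libraries differed by less than 2 points in each case.

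The remaining 8 promoters were partly or fully methylated. Ccdc152 had 94.5% in WT, 87.5% and 87.2% in the K36M pair and 97.1% and 96.4% in the K9M pair over 10 CpGs, with K36M under the others; its tile was not called (-5.78 points against WT, adjusted p 1). The promoter of 1700020D05Rik, over 80% as well, had only 3 measured CpGs. Hormad2, a meiotic chromosome axis gene, had 66.9% in WT, 57.7% and 49.9% in K36M, with 65.4% and 75.0% in K9M, and its tile differed by -14.8 points between K36M and WT (adjusted p 0.626). Il11, a cytokine gene, had 48.9% in WT, 46.5% and 48.3% in K36M, against 52.2% and 54.2% in K9M. LOC115490388 had 34.7% in WT, 27.8% and 36.2% in the K36M pair and 31.5% and 35.2% in the K9M pair, and the starts of Gm31138 and 4930433N12Rik, which lie back to back on chromosome 9, had 30.2% and 30.1% in WT. A start of Arhgef18, a guanine nucleotide exchange factor gene, was the most variable, with 46.7% in WT, 25.2% and 77.0% in K36M, against 90.8% and 80.8% in K9M. Its K36M libraries lie on both sides of WT.

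Dense tiles that were fully methylated formed a small class. Of 530 tiles with at least 20 CpGs, 423 averaged under 20% over the 5 libraries (79.8%, beside 79.9% in the rest), 16 lay in between and 91 were over 80% (17.2%, beside 16.7%). The 5 highest were the tiles from 5226001, 5227001 and 5393001 on chromosome 7, from 3039001 on chromosome 16 and from 5810001 on chromosome 1. They ranged from 98.01% to 113% over the libraries, and in each of the 5 K36M replicate 1 was the highest and K9M replicate 2 the lowest.

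The K9M replicates disagreed most at 5 tiles, given as values with no test. On chromosome 18 the neighbouring tiles from 4808001 and 4809001 had 94.1% and 89.0% in K9M replicate 1 and 46.4% and 26.8% in replicate 2. The tile from 5062001 on chromosome 1 had 98.4% and 44.2% in them, the tile from 4063001 on chromosome 3 had 131% and 78.2%, and the tile from 5974001 on chromosome 10 had 138% and 101%. Replicate 1 was the higher one in all 5, although replicate 2 had the higher mean over the region.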

How the data were processed

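The authors deposited, per library, a list of mm9 CpGs with 2 values each, a methylation fraction and a read count; per the submitters' processing notes cutadapt and BSMAP were used, with settings not given in the sources used here. The fraction times the deposited count gave a methylated count, and the remainder a second count, which in 4 libraries stayed high at methylated CpGs. In K9M replicate 2 the deposited count itself was used. The product was whole, to within 0.01, at 100% of the autosomal CpGs checked in the 4 libraries. In K9M replicate 2 it was whole at 89.2%, and all products were rounded. This reading was inferred from the values: where K9M replicate 2 reached 98%, the other 4 had median deposited levels of only 53.2% to 56.8%. Ratios were divided by the plateau, the median over the 20% of 1 kb tiles with the highest mean rank. The minimum second count was 10, required in every library. Windows of 3 Mb (at least 50 CpGs) were tested with limma 3.58.1 in R 4.3.3, and 1 kb tiles (at least 3 CpGs) with a quasi-binomial logistic model moderated by limma's squeezeVar, with dispersion held at or above 1. Both were adjusted over all autosomes, in 1 fit with 2 residual degrees of freedom, and WT, with 1 library, is assumed to vary as the mutants do. The moderation added a median of 11.2 prior degrees of freedom for tiles and an infinite number for windows. Window p-values thus rest on a spread pooled over windows. Without 1 mutant library, the spread comes from the other mutant pair alone. No label states that replicates come from different animals, and the p-values cover only the spread between these samples, possibly a technical one. On simulated tiles 79.5% of 200 changed tiles were recovered for K36M against WT with 4 false calls, and 89.5% with 1 false call for K36M against K9M. The simulated counts were drawn close to the model's own form, with a small extra spread and the same relative loss in all changed tiles. These figures therefore say little about the calls in the real data. Promoters were placed by matching CpG spacing of RefSeq sequences (GRCm38.p6) to listed mm9 CpGs, with at least 9 CpGs matched. Searching the promoters of each chromosome in the first 3 Mb of another chromosome gave 0 placements. Of 321 placements with a neighbour to compare, 316 kept the distance to a near neighbour between the builds to within 100000 bp. In 12 cases promoters were placed in inverted order with at least 12 matched. This rule was chosen after seeing the data, and genes with near-identical copies are uncertain. Tiles named are the 8 largest per comparison and direction among those called. Members, lists and tests were chosen with earlier results of these data known. Alternatives were other coverage minimums, plateaus, weightings and tests, a replicate block and leaving out each library. The logistic model and the intervals treat the methylated and second counts as separate outcomes. Whether the 2 counts hold separate reads was not determined, so neither is a binomial treatment of a methylated fraction. Overlapping reads and PCR copies are not independent, so intervals cover at most counting error under that treatment.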

Additional observations from a re-analysis of the deposited data

How the results depend on the processing

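The largest dependence was on scale: with levels as deposited, 0 tiles were called in any comparison and direction, and the K9M-minus-WT level over the region became 9.91 points, with K9M replicate 2 apparently on another scale than the rest. K36M minus WT over the region was -0.349 points with levels as deposited, -0.256 with the plateau of the top 40% of tiles and -1.62 as a mean over 1 kb tiles. The settings for the 2 differences from WT over the region were added after seeing the data. The difference between mutants in the gap between region and rest turned to 0.0528 points with second counts of at least 5 and to 0.177 over 1 kb tiles. With limma on relative levels, 3 tiles were lower in K36M than WT, 2 higher in K9M than WT and 25 lower in K36M than K9M. Their shares are given above. None was higher in K36M than WT (beside 0.00327% of all tiles) or lower in K9M than WT (beside 0.019%). With second counts of at least 5, 1 tile was higher in K36M than WT (0.0228%, beside 0.0184%). With the plateau of the top 40% of tiles, 0 were higher in K36M than WT (beside 0.0177%). In that fit 1 was lower in K9M than WT (0.027%, beside 0.0314%) and 1 higher in K36M than K9M (0.027%, beside 0.095%). Windows lower in K36M than K9M numbered 1 with second counts of at least 5 (5.26% of the 19, beside 9.48% of all windows). There was 1 with at least 20 (5.26%, beside 4.06%), and 3 with the plateau of the top 40% (15.8%, beside 16.7%).

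Leaving out 1 library at a time gave ranges of -2.18 to -0.845 points for K36M minus K9M over the region, -0.278 to -0.226 for region minus rest, -0.108 to 0.0247 for the difference between the mutants in that gap, 1 to 7 tiles higher in K36M than WT, 3 to 4 lower and 11 to 14 higher in K9M than WT, and 0 to 6 higher in K36M than K9M. Windows lower numbered 0 to 2 for K36M against WT and 0 to 13 for K36M against K9M. The cause was not tested. The count of tiles lower in K36M stayed at 18 to 26 against WT and 44 to 62 against K9M.

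The labels do not say that equal replicate numbers mark a pair, and the replicate differences of K36M and K9M correlated by 0.1 over tiles of the region. With the number as a replicate block, 17 tiles were lower in K36M than WT (0.46%, beside 0.464% of all tiles) and 0 higher (beside 0.0138%). Against K9M, 52 were lower in K36M (1.41%, beside 1.37%). In limma 3 windows were lower in K36M than K9M (15.8%, beside 12.7% of all windows), chromosome 19 with adjusted p 0.0243. The region's K36M-minus-K9M value stayed at -1.51 points. Of the tiles named, chr10:5636001-5637000 lost its call for K9M against WT in the blocked fit (adjusted p 0.210), and chr2:5219001-5220000 and chr12:3235001-3236000 lost theirs for K36M against WT (0.158 and 0.145). Depth limits sparse tiles most: with 3 CpGs, the WT interval at chr8:3717001-3718000 spanned 57.2% to 93.4%.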
